A study of Mus musculus with 36 samples.

Results

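The comparison described here is that of quadriceps muscle at day 7 with quadriceps muscle at day 3 after removal of 70% of the liver, and it comprises 10 of the 36 libraries of the series, chosen by their titles. It sets 5 libraries of mice sampled 7 days after partial hepatectomy (PHx) against 5 of mice sampled 3 days after the same operation, and 3 libraries of mice that had a sham laparotomy, in which the liver was left whole, are quoted as a level outside the comparison. All were adult male C57BL6/J mice, given in the labels as 12 to 14 weeks old, with no transgene or deletion named, and total RNA of the quadriceps was sequenced. No sham library of day 7 was used here, so time after surgery alone cannot be told apart from time after the loss of liver. Days were taken from the titles, because the treatment field gives day 3 for every sample. Of the 5 day 7 libraries, replicate 3 stood nearer to day 3 than the other 4, and each main count is therefore given with and without it.

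Partial hepatectomy is followed by regrowth of the remaining lobes, during which the body draws on its stores of fat and protein. Skeletal muscle loses protein in such states mainly through the ubiquitin-proteasome system, in which ubiquitin ligases such as atrogin-1 (Fbxo32) and MuRF1 (Trim63) mark muscle proteins for the proteasome, and through autophagy. Glucocorticoids, FOXO transcription factors and interleukin-6 signalling are known to raise these genes, whereas insulin and IGF-1 restrain them.

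Values per library are counts scaled to a common library total (CPM, by its usual name), listed in the order replicate 1 to 5. Fold changes are day 7 over day 3 on the log2 scale, from one edgeR quasi-likelihood fit to all 18 quadriceps libraries (3 sham and 5 each of days 1, 3 and 7), and a gene is called where its p, adjusted over all genes by the Benjamini-Hochberg method, is under 0.05. The day 7 libraries held 17736269 to 20877950 counts and the day 3 libraries 16302363 to 29623890. The 12 muscle fibre markers summed to 230000 to 312000 CPM at day 7, against 143000 to 249000 at day 3 and 257000 to 354000 in sham libraries. Of these, 2 of 12 were called higher. Of markers of other cells in the tissue, 6 of 11 adipocyte markers, 5 of 10 fibroblast markers, 3 of 8 pericyte and smooth muscle markers, 3 of 8 Schwann cell markers and 1 of 3 mesothelium and skin markers were called higher, and none of 10 endothelial, 6 neutrophil or 13 macrophage markers was. Called lower were 1 of 11 adipocyte, 1 of 8 satellite cell and 1 of 13 macrophage markers. Over all genes tested, 17% were called higher and 19.5% lower. Lymphocyte and pancreas markers summed to less than 1 CPM in all 10 libraries. The 9 hepatocyte markers summed to 9.81 to 392 CPM at day 7, against 9.57 to 182 at day 3, with the highest sum in day 7 replicate 4. Their median log2 fold change was -1.14, and 0 were called higher and 0 lower with all libraries. Without day 7 replicate 3, 5 of the 9 were called lower, against 23.4% of all genes. In such bulk tissue, fewer cells of a type and less RNA per cell cannot be told apart.

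Day 7 and day 3 differed across a large part of the measured genes. Of 13601 genes tested, 2656 (19.5%) were called lower and 2315 (17%) higher at day 7, or 36.5% in either direction, and 902 of the lower and 1354 of the higher ones changed at least 2-fold. Without day 7 replicate 3 the calls were 3181 lower (23.4% of 13593 genes) and 2739 higher (20.2%), 43.6% in all. Of these, 2573 lower and 2224 higher calls were shared with the full fit, and 0 genes were called in opposite directions. Groups whose 5 and 5 libraries did not overlap were fewer: 695 genes (5.11%) had all day 7 values below all day 3 values and 608 (4.47%) had them above, and without day 7 replicate 3 these numbers were 1985 (14.6%) and 1580 (11.6%). The counts of calls are read against these shares throughout. Leaving out each of the other libraries in turn gave between 1926 and 2973 genes lower and between 1457 and 2804 higher. The count of higher genes was 1512 without day 7 replicate 1 and 1457 without day 7 replicate 4.

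Libraries of the same day were not alike. When each library was set aside, genes were called from the others, and the set-aside library was placed by those genes, the share on which it lay nearer to the mean of day 7 was 99.2%, 86.2%, 39.4%, 97.6% and 62.5% for the 5 day 7 libraries, against 17.2%, 2.1%, 13.9%, 3.7% and 70.3% for the 5 day 3 libraries. Day 7 replicate 3 thus lay on the day 3 side for most of these genes, day 3 replicate 5 lay on the day 7 side, and day 7 replicate 5 was intermediate. Replicates 1 and 4 of day 7 stood farthest from day 3 on this measure. Nothing in the labels sets replicate 3 of day 7 or replicate 5 of day 3 apart from their groups, and whether these 2 libraries were exchanged was not tested. If they were, the values given for each would belong to the other day. With both left out, an alternative added after the data were seen, 3422 of 13583 genes were called lower and 3194 higher. Of these, 2610 and 2234 were shared with the full fit and 0 went in opposite directions. Both libraries were chosen for lying against their group, which favours more calls over all genes. In that fit 32 of 32 proteasome subunits, 15 of 25 atrophy ligases, 17 of 24 FOXO response genes and 10 of 27 fatty acid oxidation genes were called lower. Called higher in it were 16 of 24 collagen and basement membrane genes, 15 of 26 of lipid synthesis, 12 of 19 of calcium handling, 19 of 32 of cell division and 11 of 24 myogenic genes. The list sizes are the members tested with all libraries, and that fit's calls in the other direction are not given. With all libraries, some of these lists did hold such calls. They were 1 atrophy ligase and 4 FOXO response genes called higher. Called lower were 2 genes of lipid synthesis, 2 of cell division and 4 myogenic genes. The counts of the fit without both libraries stand against its larger shares of all genes.

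**Figure D1:**
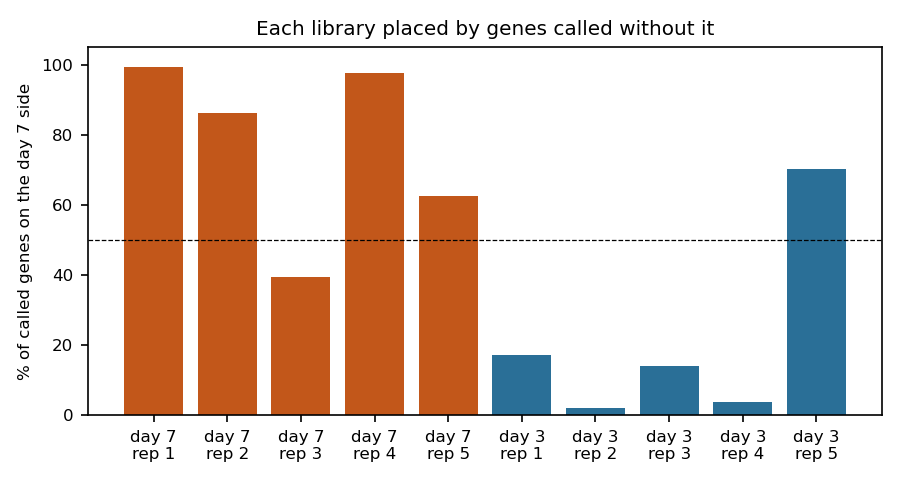
Share of genes (%) on which each library lay nearer to the day 7 mean than to the day 3 mean, for genes called without that library; orange bars are day 7 and blue bars day 3, and the dashed line marks 50%. Day 7 replicate 3 stands at 39.4% and day 3 replicate 5 at 70.3%, each across the line from the rest of its group.

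The 8 largest falls were those of Fam65c, Ffar4, Itpkc, Mlph, Cacna1i, Doc2b and the metallothionein genes Mt1 and Mt2. Fam65c was listed at 0.391, 0.305, 1.79, 0.322 and 0.368 CPM in the day 7 libraries, against 23.3, 35.4, 9.72, 17.8 and 3.07 CPM in the day 3 libraries. Every day 7 library was below every day 3 library, and day 7 replicate 3 was the highest of its group. For Fam65c the log2 fold change was -4.83 (SE 0.70, adjusted p = 0.00097). Fam65c was at -5.66 (adjusted p = 0.000134) without day 7 replicate 3. Itpkc, an inositol trisphosphate kinase, had 3.17, 5.898, 24.9, 2.53 and 8.18 CPM in the day 7 libraries, against 287, 220.3, 60.6, 179 and 21.2 CPM in the day 3 libraries, and only day 7 replicate 3 and day 3 replicate 5 crossed. For Itpkc the log2 fold change was -4.11 (SE 0.71, adjusted p = 0.00141). Itpkc was at -4.96 (adjusted p = 0.000218) without day 7 replicate 3. The T-type calcium channel subunit gene Cacna1i showed the same crossing, at 1.302, 1.27, 5.86, 0.4596 and 2.94 CPM in the day 7 libraries, against 64.5, 50.7, 12.4, 40.5 and 3.03 CPM in the day 3 libraries. For Cacna1i the log2 fold change was -3.86 (SE 0.73, adjusted p = 0.00172). Cacna1i was at -4.51 (adjusted p = 0.000484) without day 7 replicate 3.

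Doc2b, a calcium sensor of vesicle release, had 2.47, 14.3, 67.9, 3.31 and 13.9 CPM in the day 7 libraries, against 266, 340.1, 131, 380.0 and 78.7 CPM in the day 3 libraries, with no overlap and with day 7 replicate 3 near the lowest day 3 library. For Doc2b the log2 fold change was -3.56 (SE 0.77, adjusted p = 0.00298). Doc2b was at -4.82 (adjusted p = 0.000218) without day 7 replicate 3. Ffar4, a receptor for long-chain fatty acids, had 0.347, 0.102, 0.163, 2.16 and 0.184 CPM in the day 7 libraries, against 10.9, 18.9, 6.73, 16.8 and 1.93 CPM in the day 3 libraries. Only day 7 replicate 4 crossed the lowest day 3 value. For Ffar4 the log2 fold change was -4.19 (SE 0.81, adjusted p = 0.00187). Ffar4 was at -5.73 without day 7 replicate 4 (adjusted p = 0.00271). Mlph, a linker of pigment granules to a myosin motor in skin, was low in muscle throughout, with 0.368 to 1.47 CPM at day 7, against 2.97 to 26.3 CPM at day 3. For Mlph the log2 fold change was -3.87 (SE 0.60, adjusted p = 0.00111). The sham libraries averaged 0.549 ± 0.199 CPM for Doc2b and 3.68 ± 0.266 CPM for Itpkc, below every day 3 library.

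The ubiquitin ligase genes that mark muscle wasting were lower at day 7. Fbxo32 (chr15:58175879-58214892, minus strand, mm10 build), which encodes atrogin-1, had 147, 1247, 4557, 243 and 2009 CPM in the day 7 libraries, against 9572, 10286, 7087, 8761 and 3452 CPM in the day 3 libraries. Day 7 replicates 1 and 4 lay below the sham mean of 293 ± 17.1 CPM (SD, n = 3), whereas replicates 2 and 5 kept several times that level and replicate 3 lay inside the day 3 range. Its log2 fold change was -2.26 (SE 0.71, adjusted p = 0.0205) with all libraries and -3.10 (adjusted p = 0.00246) without day 7 replicate 3.

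Trim63 (chr4:134315120-134329629, plus strand), which encodes MuRF1, had 52.5, 275, 2285, 78.1 and 422 CPM in the day 7 libraries, against 5003, 4396, 2193, 3163 and 1059.7 CPM in the day 3 libraries. Again replicates 1 and 4 of day 7 were at or under the sham mean (79.99 ± 4.62 CPM) and replicate 3 was above day 3 replicates 3 and 5. For Trim63 the log2 fold change was -2.35 (SE 0.76, adjusted p = 0.0235). Trim63 was at -3.94 (adjusted p = 0.00028) without day 7 replicate 3. The fold change was at -2.12 without day 3 replicate 1 (adjusted p = 0.0513), -2.19 without day 3 replicate 2 (adjusted p = 0.0512) and -2.16 without day 7 replicate 2 (adjusted p = 0.053). Of the 25 ligases of the list, 13 were called lower and 1 higher, with a median log2 fold change of -0.64, against 19.5% and 17% of all genes and a median of 0.051 over all genes. Without day 7 replicate 3 the counts were 15 lower and 4 higher (median -0.68). Members called lower numbered 6 with only the 10 libraries of both days fitted; over the fits that left out 1 library, higher calls lay between 0 and 4. Among the smallest p-values were those of Trim54 (MuRF3, which binds microtubules; 66.4 to 173 CPM at day 7, against 172 to 348 CPM at day 3), Ubr4 (-1.18, adjusted p = 0.0024) and Fbxo31 (-1.48, adjusted p = 0.00356), and the day 7 and day 3 libraries did not overlap for Fbxo31. For Trim54 the log2 fold change was -1.40 (SE 0.24, adjusted p = 0.00141).

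The genes of the standard proteasome were lower as a body. All 32 subunit genes of the list were called lower, with a median log2 fold change of -1.16, and 31 were without day 7 replicate 3 (median -1.23). Psmb10, a subunit of the immune form that is not on this list, was called higher (1.40, adjusted p = 0.00356). Psmb4 (chr3:94884324-94886958, minus strand), a subunit of the catalytic core, had 45.2, 66.8, 91.1, 46.7 and 102.6 CPM in the day 7 libraries, against 215, 227, 207, 221 and 116 CPM in the day 3 libraries. The groups did not overlap, and day 3 replicate 5 was the lowest of its group, next to day 7 replicate 5. For Psmb4 the log2 fold change was -1.48 (SE 0.23, adjusted p = 0.00117). Psmb4 was at -1.59 (adjusted p = 0.000305) without day 7 replicate 3. The sham mean was 45.1 ± 0.761 CPM, next to the lowest day 7 value. Psmb7, another core subunit, had 165 to 267 CPM at day 7, against 265 to 589 CPM at day 3. For Psmb7 the log2 fold change was -1.14 (SE 0.19, adjusted p = 0.00134). Psma2 of the outer core rings (-1.59, adjusted p = 0.00141) and Psmd13 of the regulatory lid (-1.21, adjusted p = 0.00138) fell too, each with 1 or 2 day 7 libraries near day 3 replicate 5.

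Among 23 genes for ubiquitin and its conjugating and recycling enzymes, 13 were called lower and 1 higher, with a median log2 fold change of -0.44, and without day 7 replicate 3 the counts were 13 lower and 1 higher (median -0.41). For lower members the count was 4 with only the 10 libraries of both days fitted and 7 without day 3 replicate 2. Ubb, a polyubiquitin gene, had 31.4, 46.8, 104.6, 36.5 and 74.8 CPM in the day 7 libraries, against 207, 218, 119, 150.4 and 93.1 CPM in the day 3 libraries, so that day 7 replicate 3 reached the lower day 3 values. For Ubb the log2 fold change was -1.42 (SE 0.31, adjusted p = 0.0031). Ubb was at -1.73 (adjusted p = 0.000429) without day 7 replicate 3. Ube2z (-1.06, adjusted p = 0.00152) and Ube2s (-0.78, adjusted p = 0.00249), which are conjugating enzymes, fell with no overlap, and Usp14, a deubiquitinase of the proteasome, fell, with day 7 replicate 3 the highest of its group (-1.09, adjusted p = 0.00297; -1.32 without it).

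Of 27 autophagy genes, 16 were called lower and 1 higher, with a median log2 fold change of -0.65, and without day 7 replicate 3 the counts were 18 lower and 1 higher (median -0.76). Bnip3l, a receptor for the removal of mitochondria, had 80.4, 114, 211, 88.6 and 154 CPM in the day 7 libraries, against 518, 386, 252, 348 and 192 CPM in the day 3 libraries, and only day 7 replicate 3 crossed into the day 3 range. For Bnip3l the log2 fold change was -1.39 (SE 0.27, adjusted p = 0.00195). Bnip3l was at -1.64 (adjusted p = 0.000332) without day 7 replicate 3. Optn, a cargo receptor, had 30.01 to 51.3 CPM at day 7, against 53.8 to 128 CPM at day 3, with no overlap. For Optn the log2 fold change was -1.17 (SE 0.22, adjusted p = 0.00169). Atg3 (-0.59, adjusted p = 0.00197) and Atg4b (-0.64, adjusted p = 0.00187), which process the ATG8 family, changed less. Of 22 genes for lysosomal enzymes and the proton pump, 12 were called lower and 2 higher, with a median log2 fold change of -0.53, and without day 7 replicate 3 the counts were 12 lower and 2 higher (median -0.57). With 1 library left out, those called higher ran between 1 and 3. Ctsc went the other way: this protease, cathepsin C, which is prominent in immune cells, had 44.2, 30.9, 23.5, 45.3 and 37.5 CPM in the day 7 libraries, against 13.1, 8.79, 12.1, 10.6 and 16.98 CPM in the day 3 libraries and rose with no overlap. For Ctsc the log2 fold change was 1.56 (SE 0.19, adjusted p = 0.000724). Ctsc was at 1.68 (adjusted p = 0.000121) without day 7 replicate 3. The pump subunits Atp6v0e (-1.45, adjusted p = 0.00298) and Atp6v0d1 (-0.57, adjusted p = 0.0025) fell.

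Of genes known to respond to FOXO factors and to glucocorticoids, 41.7% and 65.2% were called lower, against 19.5% of all genes. Of 24 FOXO and atrophy response genes, 10 were called lower and 4 higher, with a median log2 fold change of -1.29. Without day 7 replicate 3 the counts were 16 lower and 4 higher (median -1.82). The number called lower was 5 with only the 10 libraries of both days fitted, 5 without day 3 replicate 2, 6 without day 7 replicate 1 and 6 without day 7 replicate 4; members called higher numbered 2 with a covariate of summed adipocyte markers. Of 23 glucocorticoid receptor targets, 15 were called lower and 0 higher, with a median log2 fold change of -1.47, and without day 7 replicate 3 the counts were 19 lower and 0 higher (median -2.11). Calls of lower members came to 6 with only the 10 libraries of both days fitted and 6 without day 3 replicate 2. Several genes stand on both lists.

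Fkbp5, a chaperone of the glucocorticoid receptor that the receptor itself induces, had 20.1, 137, 296, 35.1 and 132 CPM in the day 7 libraries, against 302, 437, 373, 358 and 296 CPM in the day 3 libraries. Day 7 replicate 3 and day 3 replicate 5 all but met. For Fkbp5 the log2 fold change was -1.51 (SE 0.49, adjusted p = 0.0235). Fkbp5 was at -2.12 (adjusted p = 0.00159) without day 7 replicate 3. The fold change was at -1.41 without day 3 replicate 2 (adjusted p = 0.0528) and -1.27 without day 7 replicate 4 (adjusted p = 0.0536). Tsc22d3 (GILZ), a further receptor target, had 80.3 to 254 CPM at day 7, against 229 to 548 CPM at day 3, and Ampd3, an AMP deaminase of atrophying muscle, had 26.6, 52.01, 194, 26.1 and 110.5 CPM in the day 7 libraries, against 851, 877, 420.4, 608 and 273 CPM in the day 3 libraries, with no overlap. For Tsc22d3 the log2 fold change was -1.55 (SE 0.32, adjusted p = 0.00249). Tsc22d3 was at -1.92 (adjusted p = 0.000257) without day 7 replicate 3. For Ampd3 the log2 fold change was -2.89 (SE 0.59, adjusted p = 0.00235). Ampd3 was at -3.49 (adjusted p = 0.000447) without day 7 replicate 3. Lpin1, a phosphatidate phosphatase, stood at 314 to 1685 CPM at day 7, against 1214 to 2311 CPM at day 3, the highest day 7 value being that of replicate 3. For Lpin1 the log2 fold change was -1.38 (SE 0.36, adjusted p = 0.00807). Lpin1 was at -2.02 (adjusted p = 0.000121) without day 7 replicate 3. Sesn3, a sestrin that restrains mTORC1, rose (8.18 to 18.8 CPM at day 7, against 2.68 to 6.603 CPM at day 3). For Sesn3 the log2 fold change was 1.45 (SE 0.26, adjusted p = 0.00152).

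Pdk4, the kinase that shuts off pyruvate entry into mitochondria, was not called with all libraries, and its day 7 values spanned more than an order of magnitude: it had 310.5, 2273, 10236, 504 and 200.1 CPM in the day 7 libraries, against 13487, 11814, 5496, 9565 and 4792 CPM in the day 3 libraries. Without day 7 replicate 3, every remaining day 7 library was below every day 3 library. For Pdk4 the log2 fold change was -1.74 (SE 0.79, adjusted p = 0.091). Pdk4 was at -3.46 (adjusted p = 0.000715) without day 7 replicate 3. Ddit4 (REDD1), an inhibitor of mTORC1, had the same arrangement, with 4.69, 24.96, 225, 6.25 and 13.1 CPM in the day 7 libraries, against 186, 315, 131, 258 and 72.1 CPM in the day 3 libraries. For Ddit4 the log2 fold change was -1.81 (SE 0.82, adjusted p = 0.0901). Ddit4 was at -3.98 (adjusted p = 0.000222) without day 7 replicate 3. The transcription factor genes were alike in this: Foxo1 had 39.1 to 406 CPM at day 7, against 235 to 447 CPM at day 3, and Foxo3 had 19.03 to 101.5 CPM at day 7, against 69.03 to 108.1 CPM at day 3 and was only just called. For Foxo1 the log2 fold change was -1.11 (SE 0.49, adjusted p = 0.0831). Foxo1 was at -1.81 (adjusted p = 0.00324) without day 7 replicate 3. For Foxo3 the log2 fold change was -0.90 (SE 0.35, adjusted p = 0.0497). Foxo3 was at -1.41 (adjusted p = 0.00104) without day 7 replicate 3. Leaving out any of the other libraries except day 3 replicate 5 ended the call of Foxo3, with log2 fold changes of -0.97 to -0.70 and adjusted p of 0.0605 to 0.115. Cdkn1a, a cell cycle inhibitor, was not called with all libraries. For Cdkn1a the log2 fold change was -1.52 (SE 0.62, adjusted p = 0.0634). Cdkn1a was at -2.28 (adjusted p = 0.00616) without day 7 replicate 3. Cdkn1a was at -1.70 without day 3 replicate 5 (adjusted p = 0.0442).

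**Figure D2:**
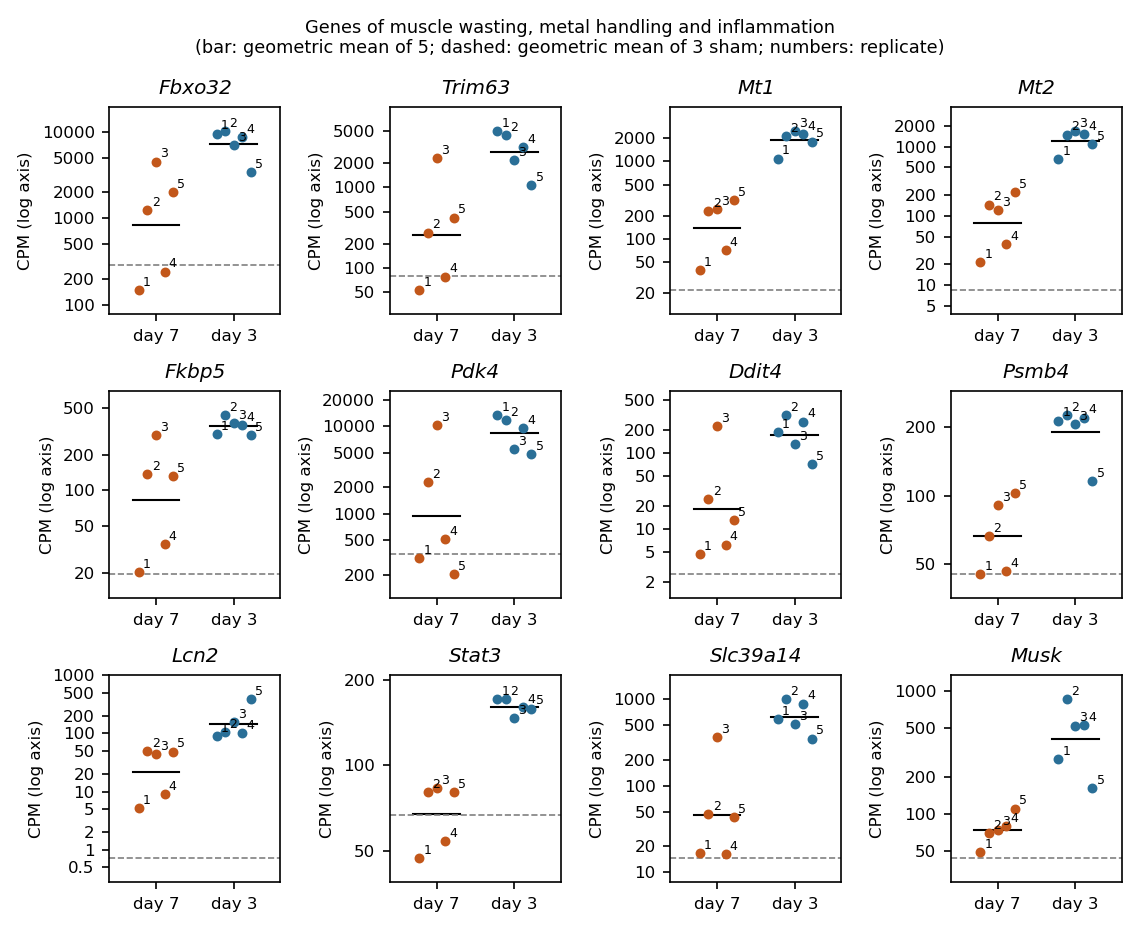
CPM on log axes for 12 genes, with the 5 day 7 libraries at the left (orange) and the 5 day 3 libraries at the right (blue) of each panel, numbered by replicate; black bars are geometric means and the dashed line is the geometric mean of the 3 sham libraries. Day 7 replicate 3 lies with the day 3 libraries for Fbxo32, Trim63, Pdk4 and Ddit4, but with its own group for Mt1, Mt2, Lcn2, Stat3 and Musk.

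Metallothioneins, small metal-binding proteins induced by zinc, glucocorticoids and inflammation, were among the most reduced genes, and the stretches just before their starts are shown because the pair moved together in every day 7 library. They lie side by side on chromosome 8, Mt1 at chr8:94179089-94180327, plus strand and Mt2 at chr8:94172618-94173567, plus strand (mm10). The 250 bases before each start (chr8:94178839-94179088 for Mt1 and chr8:94172368-94172617 for Mt2, plus strand, RefSeq on GRCm38.p6) read as follows, with capitals marking the core of the metal response element, TGCACNC or TGCGCNC on either strand:
Mt1: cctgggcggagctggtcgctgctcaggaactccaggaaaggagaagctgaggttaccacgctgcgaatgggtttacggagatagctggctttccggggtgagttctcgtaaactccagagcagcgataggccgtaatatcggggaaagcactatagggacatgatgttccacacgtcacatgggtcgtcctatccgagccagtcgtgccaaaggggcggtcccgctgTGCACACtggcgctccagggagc
Mt2: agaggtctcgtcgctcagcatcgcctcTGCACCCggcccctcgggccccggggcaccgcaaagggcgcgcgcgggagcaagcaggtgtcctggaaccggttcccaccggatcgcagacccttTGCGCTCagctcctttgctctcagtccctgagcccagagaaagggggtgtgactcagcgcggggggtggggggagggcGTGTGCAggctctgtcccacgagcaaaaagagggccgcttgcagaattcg
The core occurred 1 time in this stretch before Mt1, with its first base 23 bases before the start, and 3 times before Mt2, at 223, 128 and 50 bases. Bases after the annotated start were not searched, so these are not counts of all such elements of either gene. Of 32851 promoters of this length, 21.4% held at least 1 such match and 5.17% at least 2, so the letters by themselves are common.

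Mt1 had 40.3, 228, 246, 71.7 and 319.7 CPM in the day 7 libraries, against 1079, 2106, 2451, 2207 and 1787 CPM in the day 3 libraries, and Mt2 had 21.2, 145, 122, 38.9 and 218 CPM in the day 7 libraries, against 656, 1490.4, 1683, 1504 and 1084 CPM in the day 3 libraries. Every day 7 library was below every day 3 library for both genes, and replicate 3 lay within the range of the other day 7 libraries. The differences were large with all libraries. For Mt1 the log2 fold change was -3.41 (SE 0.56, adjusted p = 0.00134). Mt1 was at -3.55 (adjusted p = 0.000573) without day 7 replicate 3. For Mt2 the log2 fold change was -3.56 (SE 0.64, adjusted p = 0.00157). Mt2 was at -3.60 (adjusted p = 0.00121) without day 7 replicate 3. At day 7 both genes were nonetheless above their sham means of 22.3 ± 5.82 CPM and 8.397 ± 1.65 CPM in every library.

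Zinc transporters divided by library. Slc39a14 (ZIP14), an importer of zinc and iron that inflammation induces, had 16.7, 47.2, 366, 16.3 and 43.9 CPM in the day 7 libraries, against 593, 1006, 518, 891 and 350.0 CPM in the day 3 libraries, with day 7 replicate 3 inside the day 3 range and the other 4 far below it. For Slc39a14 the log2 fold change was -2.78 (SE 0.77, adjusted p = 0.0116). Slc39a14 was at -4.44 (adjusted p = 0.000182) without day 7 replicate 3. Slc30a2, an exporter into vesicles, had 1.58 to 17.8 CPM at day 7, against 13.03 to 28.02 CPM at day 3, the highest day 7 value again in replicate 3. For Slc30a2 the log2 fold change was -1.77 (SE 0.50, adjusted p = 0.0119). Slc30a2 was at -2.66 (adjusted p = 0.000222) without day 7 replicate 3. Of the 8 tested metallothionein and zinc transporter genes, 5 were called lower and 1 higher, and 5 and 2 without day 7 replicate 3. With 1 library left out, those called higher ran between 0 and 2.

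Single acute phase and interleukin-6 pathway genes fell, while their list was called at shares not far from those of all genes. Stat3, the transcription factor that interleukin-6 activates, had 46.9, 80.1, 82.8, 54.1 and 80.6 CPM in the day 7 libraries, against 171, 171, 146, 159.8 and 158 CPM in the day 3 libraries. The groups did not overlap and each was narrow. For Stat3 the log2 fold change was -1.23 (SE 0.19, adjusted p = 0.00104). Stat3 was at -1.30 (adjusted p = 0.000283) without day 7 replicate 3. Lcn2 (chr2:32384637-32387739, minus strand), a siderophore-binding acute phase protein, had 5.296, 49.7, 44.5, 9.15 and 48.5 CPM in the day 7 libraries, against 89.2, 106.7, 156, 101.3 and 389 CPM in the day 3 libraries, with no overlap, the highest day 3 value in replicate 5 and a sham mean of 0.763 ± 0.366 CPM. For Lcn2 the log2 fold change was -2.42 (SE 0.58, adjusted p = 0.00534). Lcn2 was at -2.58 (adjusted p = 0.00476) without day 7 replicate 3. Il6ra, the receptor subunit, had 8.94, 42.9, 152, 14.5 and 36.3 CPM in the day 7 libraries, against 188, 308, 189, 282 and 140.1 CPM in the day 3 libraries, so that only day 7 replicate 3 crossed. For Il6ra the log2 fold change was -2.12 (SE 0.56, adjusted p = 0.00877). Il6ra was at -3.11 (adjusted p = 0.000218) without day 7 replicate 3.

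Pim1, a kinase gene under STAT control, had 14.2, 15.2, 18.4, 11.3 and 26.8 CPM in the day 7 libraries, against 223, 148, 32.8, 48.1 and 17.2 CPM in the day 3 libraries, and its day 3 values ranged more widely than those of day 7. For Pim1 the log2 fold change was -2.45 (SE 0.62, adjusted p = 0.00722). Pim1 was at -1.84 without day 3 replicate 1 (adjusted p = 0.0256). Neither Socs3, the feedback inhibitor of the pathway (3.54 to 8.45 CPM at day 7, against 3.82 to 8.71 CPM at day 3; adjusted p = 0.868), nor Serpina3n, a protease inhibitor (15.6 to 195 CPM at day 7, against 51.7 to 628 CPM at day 3; log2 fold change -1.34, adjusted p = 0.15), was called. Over the list, of 25 tested genes 7 (28%) were called lower and 3 (12%) higher, against 19.5% and 17% of all genes, with a median log2 fold change of -0.51. Without day 7 replicate 3 the counts were 11 lower and 2 higher (median -0.59), against 23.4% and 20.2% of all genes. Lower calls were 4 without day 3 replicate 2, 4 without day 3 replicate 4, 4 without day 7 replicate 1, 4 without day 7 replicate 2 and 4 without day 7 replicate 4; over the fits that left out 1 library, higher calls lay between 1 and 3.

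The machinery for making ribosomes and starting translation was lower as well. Of 30 ribosome biogenesis and MYC target genes, 15 were called lower and 1 higher, with a median log2 fold change of -0.57, and without day 7 replicate 3 the counts were 19 lower and 1 higher (median -0.62). Calls of higher members were between 0 and 2 with 1 library left out. Pes1, which acts in large subunit assembly, had 26.4, 31.4, 43.2, 23.7 and 48.3 CPM in the day 7 libraries, against 79.2, 78.2, 66.997, 77.7 and 57.01 CPM in the day 3 libraries, with no overlap. For Pes1 the log2 fold change was -1.05 (SE 0.18, adjusted p = 0.00139). Ddx21, a nucleolar helicase (-1.43, adjusted p = 0.00169), and the nucleolar proteins Ncl (-0.997, adjusted p = 0.00173) and Npm1 (-0.97, adjusted p = 0.0018) fell, with day 3 replicate 5 the lowest of its group for all 3 genes.

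Of 28 translation factors, 14 were called lower and 1 higher, with a median log2 fold change of -0.43, and without day 7 replicate 3 the counts were 14 lower and 1 higher (median -0.45). Calls of lower members came to 8 with only the 10 libraries of both days fitted and 9 with only those of both days fitted and day 7 replicate 3 left out. Eif4a2, an RNA helicase of initiation, had 197, 197, 384, 195 and 223 CPM in the day 7 libraries, against 625, 560.2, 544, 553 and 385 CPM in the day 3 libraries. The groups did not overlap but day 7 replicate 3 and day 3 replicate 5 nearly met. For Eif4a2 the log2 fold change was -1.16 (SE 0.19, adjusted p = 0.00125). Eif4a2 was at -1.39 (adjusted p = 0.000121) without day 7 replicate 3. Eif3a (-1.55, adjusted p = 0.00152), Eif4a1 (-1.25, adjusted p = 0.00157) and Eif2s1 (-0.73, adjusted p = 0.0016) fell. The ribosomal proteins themselves were seldom called: of 57 tested, 4 were called lower and 0 higher (median -0.16), a share below that of all genes, and without day 7 replicate 3 the counts were 3 lower and 0 higher (median -0.07). For lower members the count was 2 with only the 10 libraries of both days fitted, 2 with only those of both days fitted and day 7 replicate 3 left out, 1 without day 3 replicate 1, 2 without day 3 replicate 2, 8 without day 3 replicate 5, 1 without day 7 replicate 1, 1 without day 7 replicate 4 and 18 without day 7 replicate 5. Those 4 were Rps6 (-0.70, adjusted p = 0.00408), Rps27 (-1.51, adjusted p = 0.0201), Rps14 (-0.45, adjusted p = 0.0239) and Rpl5 (-0.44, adjusted p = 0.0319). Rps27 had only 0.391 to 1.03 CPM at day 7, against 0.878 to 2.73 CPM at day 3, so its fold change rests on few reads. It was not called without day 3 replicate 1, day 7 replicate 1 or day 7 replicate 4. Rps14 lost its call without day 3 replicate 1 or 2 or day 7 replicate 1 or 4. Among these fits Rpl5 was called only with all libraries or without day 3 replicate 5 or day 7 replicate 5. Ribosomal protein genes have many near-identical processed copies, so their counts are uncertain.

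Signals that restrain or promote muscle growth were mixed. Of 25 genes of the myostatin and activin system, 8 were called lower and 4 higher, with a median log2 fold change of 0.30, and without day 7 replicate 3 the counts were 8 lower and 4 higher (median 0.33). Higher calls were 2 without day 7 replicate 1. Mstn (myostatin), the muscle-made inhibitor of muscle growth, had 58.2, 73.7, 206, 86.7 and 133 CPM in the day 7 libraries, against 345, 349, 317, 254 and 92.3 CPM in the day 3 libraries. All 5 day 7 libraries were below the 4 highest day 3 libraries, and day 3 replicate 5 was below day 7 replicates 3 and 5. For Mstn the log2 fold change was -1.29 (SE 0.34, adjusted p = 0.00838). Mstn was at -1.63 (adjusted p = 0.000992) without day 7 replicate 3. Fstl1, a follistatin-like secreted protein, had 41.4, 24.7, 18.7, 61.03 and 16.4 CPM in the day 7 libraries, against 10.2, 5.24, 5.87, 8.17 and 14.1 CPM in the day 3 libraries and rose with no overlap. For Fstl1 the log2 fold change was 1.90 (SE 0.37, adjusted p = 0.00192). Fstl1 was at 2.04 (adjusted p = 0.000671) without day 7 replicate 3. The receptor genes Acvr1b (-1.63, adjusted p = 0.00443) and Tgfbr2 (-0.71, adjusted p = 0.00195) and the mediator Smad4 (-0.74, adjusted p = 0.0046) fell.

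Igf1, a growth factor of muscle and liver, was higher in 2 day 7 libraries, with 109.4, 17.3, 34.7, 114 and 32.99 CPM in the day 7 libraries, against 36.7, 28.98, 22.2, 23.2 and 16.3 CPM in the day 3 libraries. The other 3 lay within the day 3 range. For Igf1 the log2 fold change was 1.28 (SE 0.46, adjusted p = 0.0385). Igf1 was at 1.43 (adjusted p = 0.0229) without day 7 replicate 3. That call was lost without day 3 replicate 2, 3, 4 or 5 or without day 7 replicate 1 or 4, with log2 fold changes of 0.93 to 1.37 and adjusted p of 0.0593 to 0.134. Of 27 genes of insulin and IGF signalling, 9 were called lower and 6 higher, with a median log2 fold change of -0.07, and without day 7 replicate 3 the counts were 10 lower and 7 higher (median -0.19). The number called higher was 3 with only the 10 libraries of both days fitted, 3 without day 3 replicate 3, 2 without day 3 replicate 4, 3 without day 7 replicate 1 and 2 without day 7 replicate 4. Insr, the insulin receptor, had 145, 249.8, 338, 151 and 268 CPM in the day 7 libraries, against 487, 638, 446, 525 and 297 CPM in the day 3 libraries, with an overlap made by day 7 replicate 3 and day 3 replicate 5. For Insr the log2 fold change was -1.05 (SE 0.23, adjusted p = 0.00293). Insr was at -1.23 (adjusted p = 0.000613) without day 7 replicate 3. Gsk3b (-1.59, adjusted p = 0.00256), Tsc1 (-0.84, adjusted p = 0.00291) and Rps6kb1, the S6 kinase (-0.67, adjusted p = 0.00167), fell.

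At the nerve contact, Musk, the kinase that gathers acetylcholine receptors, had 49.1, 70.8, 75.2, 79.6 and 111 CPM in the day 7 libraries, against 279.9, 867, 526, 532 and 164 CPM in the day 3 libraries and fell with no overlap, with day 7 replicate 3 in the middle of its group. For Musk the log2 fold change was -2.62 (SE 0.40, adjusted p = 0.00111). Musk was at -2.61 (adjusted p = 0.000522) without day 7 replicate 3. Ache, acetylcholinesterase, had 22.96, 12.7, 7.76, 30.98 and 4.59 CPM in the day 7 libraries, against 0.666, 0.956, 1.72, 0.827 and 5.88 CPM in the day 3 libraries, and Chrne, the adult receptor subunit, had 12.5, 11.03, 6.67, 15.1 and 6.799 CPM in the day 7 libraries, against 2.605, 1.45, 2.48, 2.34 and 5.66 CPM in the day 3 libraries. Both rose, and for Ache only day 3 replicate 5 and day 7 replicate 5 crossed. For Ache the log2 fold change was 2.96 (SE 0.65, adjusted p = 0.00328). Ache was at 3.13 (adjusted p = 0.00171) without day 7 replicate 3. For Chrne the log2 fold change was 1.84 (SE 0.42, adjusted p = 0.00402). Chrne was at 1.96 (adjusted p = 0.00218) without day 7 replicate 3. Ache was at 3.91 without day 3 replicate 5 (adjusted p = 0.0003). Ncam1, an adhesion molecule of nerve, satellite cells and regenerating fibres, rose. For Ncam1 the log2 fold change was 1.42 (SE 0.32, adjusted p = 0.00387). The list of 24 junction and denervation genes went both ways: 7 were called higher and 3 lower, with a median log2 fold change of 0.36, and without day 7 replicate 3 the counts were 9 higher and 4 lower (median 0.52). With 1 library left out, those called lower ran between 1 and 4.

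**Figure D3:**
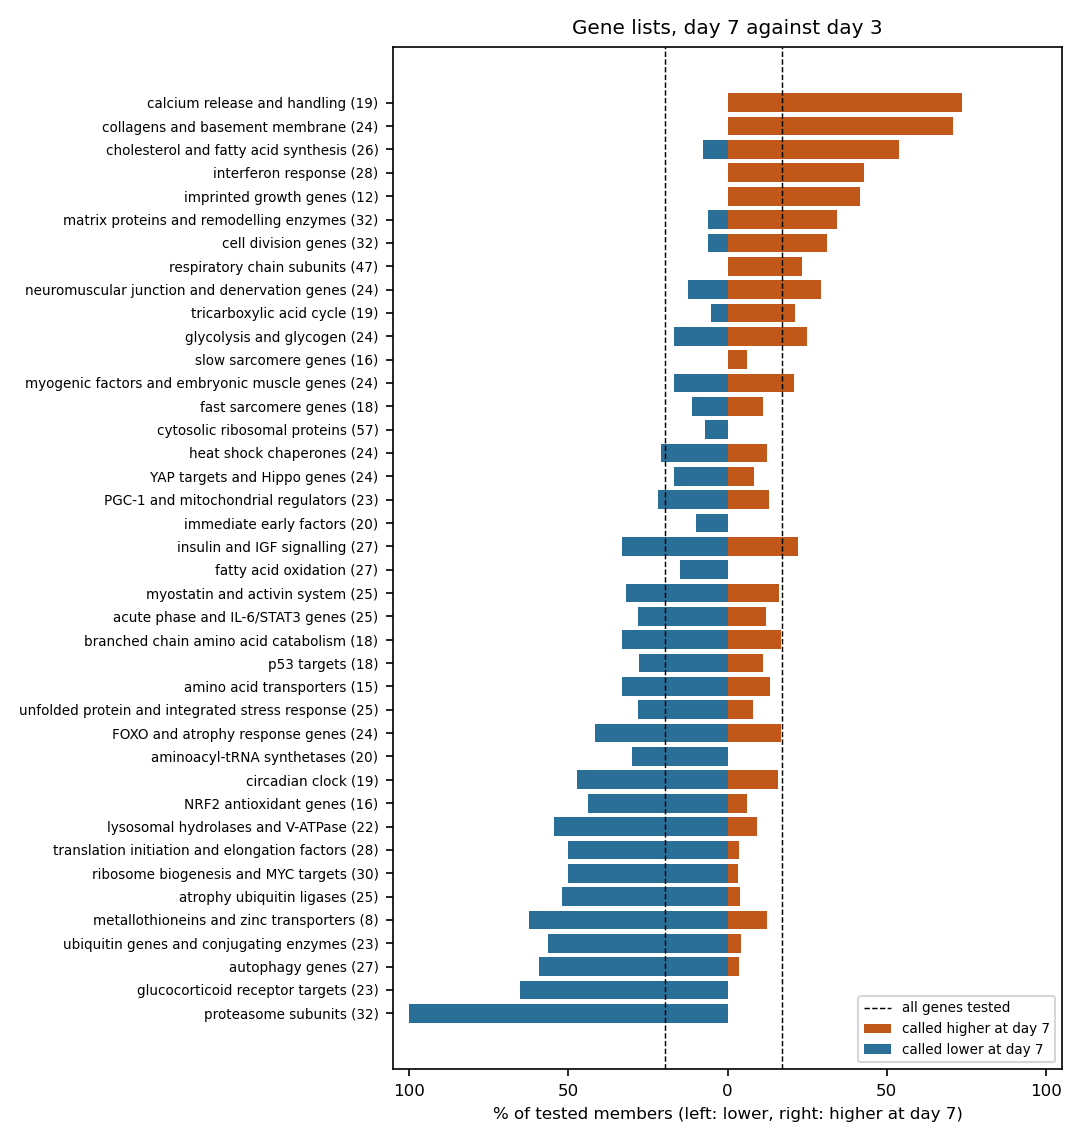
Percent of tested members called higher (orange, to the right) and lower (blue, to the left) at day 7 than at day 3 for 40 gene lists, with the number tested in brackets; dashed lines mark the shares of all genes tested, 17% higher and 19.5% lower. Proteasome subunits stand at 100% lower, and calcium handling and collagen genes have the longest bars to the right.

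Collagen genes were higher at day 7. Of 24 collagen and basement membrane genes, 17 were called higher and 0 lower, with a median log2 fold change of 1.43, and without day 7 replicate 3 the counts were 15 higher and 0 lower (median 1.51). Leaving out 1 library gave lower counts between 0 and 1. Col1a1 (chr11:94936270-94951856, plus strand), the main fibrillar collagen, had 173, 91.3, 135, 268 and 25.7 CPM in the day 7 libraries, against 5.75, 4.24, 5.97, 4.87 and 38.1 CPM in the day 3 libraries, and Col3a1 (chr1:45311538-45349706, plus strand), its partner in soft tissue, had 133, 73.8, 50.6, 353 and 20.4 CPM in the day 7 libraries, against 6.54, 3.02, 4.96, 4.72 and 32.7 CPM in the day 3 libraries. For both, 4 day 3 libraries were under 7 CPM and day 3 replicate 5 alone exceeded a day 7 library, replicate 5. For Col1a1 the log2 fold change was 3.55 (SE 0.67, adjusted p = 0.00173). Col1a1 was at 3.56 (adjusted p = 0.0011) without day 7 replicate 3. For Col3a1 the log2 fold change was 3.60 (SE 0.76, adjusted p = 0.0027). Without day 3 replicate 5 the log2 fold changes were 4.73 and 4.72, and without day 7 replicate 4 that of Col3a1 was 2.74.

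The 3 chains of collagen VI, which anchors fibres to the matrix, rose with no overlap. Col6a1 had 88.9, 44.9, 41.5, 125 and 32.3 CPM in the day 7 libraries, against 8.66, 8.41, 11.7, 9.49 and 19.9 CPM in the day 3 libraries, so that replicate 3 of day 7, too, was above every day 3 library. For Col6a1 the log2 fold change was 2.51 (SE 0.38, adjusted p = 0.00104). Col6a1 was at 2.64 (adjusted p = 0.000238) without day 7 replicate 3. Col6a2 had 21.04 to 109.3 CPM at day 7, against 4.55 to 12.1 CPM at day 3 and Col6a3 had 37.6 to 173 CPM at day 7, against 2.91 to 20.5 CPM at day 3, and the low-abundance Col16a1 rose too (1.89, adjusted p = 0.00134). For Col6a2 the log2 fold change was 2.95 (SE 0.48, adjusted p = 0.00126). For Col6a3 the log2 fold change was 3.27 (SE 0.53, adjusted p = 0.00128). The sham mean of Col6a1 was 106.1 ± 6.26 CPM, inside the day 7 range and above the whole day 3 range. Of 10 fibroblast markers, 5 were called higher, their sum being 606 to 1740 CPM at day 7, against 542 to 2070 at day 3. Col1a1 and Col3a1 are themselves among these 10 markers, so the 2 results are not separate. Collagens are among the genes fibroblasts express most, and the part of fibroblast number in the result was not tested.

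Of 32 other matrix proteins and remodelling enzymes, 11 were called higher and 2 lower, with a median log2 fold change of 0.57, and without day 7 replicate 3 the counts were 11 higher and 3 lower (median 0.45). Over the fits that left out 1 library, lower calls lay between 1 and 3. Lum, a collagen-binding proteoglycan, had 33.4, 9.202, 9.06, 29.3 and 5.38 CPM in the day 7 libraries, against 3.63, 0.6498, 1.01, 1.12 and 4.21 CPM in the day 3 libraries and rose. For Lum the log2 fold change was 3.03 (SE 0.55, adjusted p = 0.00157). Loxl2, a collagen cross-linking enzyme (1.87, adjusted p = 0.00157), and Fbn1, fibrillin (1.80, adjusted p = 0.00212), rose as well.

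Genes for calcium release and its coupling to excitation rose as a group. Of 19 tested, 14 were called higher and 0 lower, with a median log2 fold change of 0.78, and without day 7 replicate 3 the counts were 13 higher and 0 lower (median 0.75). Casq1, the calcium store protein of fast fibres, had 1838, 467, 896, 1662 and 434 CPM in the day 7 libraries, against 272, 207, 126, 164 and 227 CPM in the day 3 libraries, with no overlap and with day 7 replicates 1 and 4 near the sham mean of 2152 ± 222 CPM. For Casq1 the log2 fold change was 2.41 (SE 0.43, adjusted p = 0.00157). Casq1 was at 2.46 (adjusted p = 0.00074) without day 7 replicate 3. Cacnb1, a subunit of the voltage sensor, had 197, 156, 67.04, 195 and 137 CPM in the day 7 libraries, against 23.1, 24.8, 25.7, 19.7 and 61.5 CPM in the day 3 libraries. Replicate 3 was the lowest at day 7 and replicate 5 the highest at day 3, yet the groups stayed apart. For Cacnb1 the log2 fold change was 2.28 (SE 0.34, adjusted p = 0.00104). Cacnb1 was at 2.47 (adjusted p = 0.000145) without day 7 replicate 3.

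Slc8a3, a sodium-calcium exchanger, had 81.04, 49.98, 24.1, 60.99 and 26.6 CPM in the day 7 libraries, against 2.73, 6.001, 5.92, 2.72 and 16.1 CPM in the day 3 libraries, and without day 3 replicate 5 its log2 fold change was 3.47. For Slc8a3 the log2 fold change was 2.85 (SE 0.49, adjusted p = 0.00138). Slc8a3 was at 3.02 (adjusted p = 0.000352) without day 7 replicate 3. Stac3, an adaptor that the coupling complex needs, had 60.4 to 127 CPM at day 7, against 31.3 to 42.8 CPM at day 3, and Camk2a, a calcium-dependent kinase, rose (1.76, adjusted p = 0.00371). For Stac3 the log2 fold change was 1.26 (SE 0.23, adjusted p = 0.00169). The calcium genes are fibre genes. The summed fibre markers, given with the depths, overlapped between the days, and their part in the result was not tested.

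Myogenic factors and embryonic muscle genes included some of the strongest rises. Mef2c, a transcription factor of muscle differentiation, had 798, 802, 231, 671 and 655 CPM in the day 7 libraries, against 76.7, 143, 142, 89.4 and 290.2 CPM in the day 3 libraries. All day 7 libraries but replicate 3 were above every day 3 library. For Mef2c the log2 fold change was 2.09 (SE 0.42, adjusted p = 0.00227). Mef2c was at 2.30 (adjusted p = 0.000457) without day 7 replicate 3. Mef2d fell (-0.76, adjusted p = 0.00235), as did Xirp1, an actin-binding protein of stressed muscle (212 to 715 CPM at day 7, against 992 to 2122 CPM at day 3). For Xirp1 the log2 fold change was -1.59 (SE 0.34, adjusted p = 0.00299). Myog, a differentiation factor, was not called (2.06 to 14.6 CPM at day 7, against 1.61 to 10.1 CPM at day 3; adjusted p = 0.724), and Pax7, the satellite cell factor, was not called with all libraries although its groups did not overlap (2.33 to 4.38 CPM at day 7, against 0.876 to 2.19 CPM at day 3). For Pax7 the log2 fold change was 1.27 (SE 0.50, adjusted p = 0.0559). Pax7 was at 1.38 (adjusted p = 0.0431) without day 7 replicate 3. Of 8 satellite cell markers, Pax7 included, 1 was called, the syndecan Sdc4, named after its values were seen, which fell (-1.70, adjusted p = 0.0184). The 8 markers summed to 55.8 to 185 CPM at day 7, against 131 to 316 at day 3 and 42.2 to 58 in sham libraries. Their median log2 fold change was 0.74, so the sum and the typical marker went in opposite directions. Without day 7 replicate 3, 2 were called higher and 1 lower. Over the list of 24, 5 (20.8%) were called higher and 4 (16.7%) lower, near the 17% and 19.5% of all genes. The median log2 fold change of the list was 0.43. Without day 7 replicate 3 the counts were 8 higher and 3 lower (median 0.52), against 20.2% and 23.4% of all genes. Higher calls were 8 by the DESeq2 Wald test and 10 without day 3 replicate 5.

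Myh3, the embryonic myosin heavy chain, had 8.07, 84.6, 2.87, 23.3 and 1.84 CPM in the day 7 libraries, against 1.15, 0.229, 0.8602, 0.146 and 3.38 CPM in the day 3 libraries, its highest value being that of day 7 replicate 2. For Myh3 the log2 fold change was 4.38 (SE 0.96, adjusted p = 0.00333). Myh3 was at 4.66 (adjusted p = 0.00105) without day 7 replicate 3. Myh3 was at 5.38 without day 3 replicate 5 (adjusted p = 0.00114) and 2.96 without day 7 replicate 2 (adjusted p = 0.0118). Myh8, the perinatal chain, had 4.04, 36.96, 1.84, 8.46 and 3.22 CPM in the day 7 libraries, against 1.696, 2.14, 1.97, 2.14 and 2.41 CPM in the day 3 libraries, so that it, too, was highest in replicate 2, without which its log2 fold change was 1.08. For Myh8 the log2 fold change was 2.39 (SE 0.59, adjusted p = 0.00639). Myh8 was at 2.66 (adjusted p = 0.00117) without day 7 replicate 3. Sham libraries averaged 0.314 ± 0.131 CPM for Myh3 and 1.93 ± 0.434 CPM for Myh8.

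Mybph, a thick filament protein, had 182, 75.3, 11.99, 614 and 126 CPM in the day 7 libraries, against 1.696, 3.86, 6.73, 0.973 and 13.8 CPM in the day 3 libraries. Only day 7 replicate 3 crossed. For Mybph the log2 fold change was 5.21 (SE 0.97, adjusted p = 0.00169). Mybph was at 5.51 (adjusted p = 0.000309) without day 7 replicate 3. Mybph was at 5.92 without day 3 replicate 5 (adjusted p = 0.000594) and 4.18 without day 7 replicate 4 (adjusted p = 0.00579). Aqp4, the water channel of fast fibres, had 111, 37.9, 6.18, 110.0 and 6.11 CPM in the day 7 libraries, against 0.545, 1.11, 1.37, 0.146 and 6.36 CPM in the day 3 libraries, so that the 2 lowest day 7 libraries were at the level of day 3 replicate 5. For Aqp4 the log2 fold change was 4.81 (SE 0.93, adjusted p = 0.0019). Aqp4 was at 5.09 (adjusted p = 0.000476) without day 7 replicate 3. Aqp4 was at 6.07 without day 3 replicate 5 (adjusted p = 0.000305). Plcd4, a phospholipase C, had 118, 13.2, 2.22, 101.6 and 13.97 CPM in the day 7 libraries, against 3.27, 1.87, 1.11, 1.22 and 7.33 CPM in the day 3 libraries. For Plcd4 the log2 fold change was 4.07 (SE 0.95, adjusted p = 0.00449). Plcd4 was at 4.37 (adjusted p = 0.000915) without day 7 replicate 3. Plcd4 was at 4.75 without day 3 replicate 5 (adjusted p = 0.00242) and 3.46 without day 7 replicate 1 (adjusted p = 0.015).

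**Figure D4:**
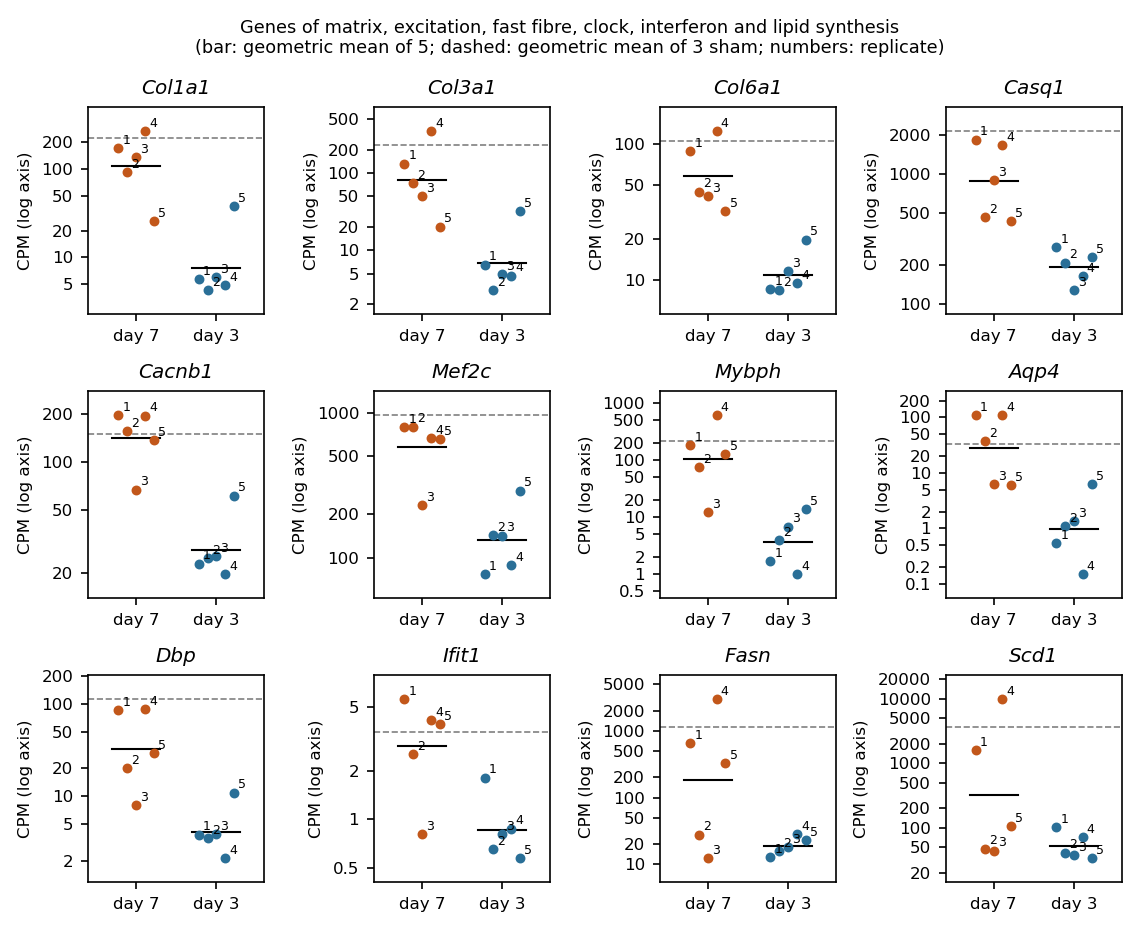
CPM on log axes for 12 genes, with the 5 day 7 libraries at the left (orange) and the 5 day 3 libraries at the right (blue) of each panel, numbered by replicate; black bars are geometric means and the dashed line is the geometric mean of the 3 sham libraries. Col6a1, Casq1 and Cacnb1 are higher in every day 7 library than at day 3, Col1a1 and Col3a1 overlap where day 3 replicate 5 exceeds day 7 replicate 5, and Fasn and Scd1 are highest in day 7 replicates 1 and 4 and not above day 3 in replicate 3.

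Myosin composition itself varied widely between libraries of the same day. Per kilobase of transcript, Myh4, the fastest chain, made up 79.1%, 40.3%, 73.3%, 85.4% and 85.2% of the 4 adult heavy chain levels (Myh4, Myh1, Myh2 and Myh7) in the day 7 libraries, against 91.5%, 92.3%, 88.2%, 98.2% and 59.8% in the day 3 libraries. Day 7 replicate 2 and day 3 replicate 5 had the smallest shares of Myh4 and the largest of Myh1, at 42.6% and 32.6%. In CPM none of the 4 was called (Myh4 -0.38, adjusted p = 0.343; Myh1 1.14, adjusted p = 0.163; Myh2 2.005, adjusted p = 0.146; Myh7 0.46, adjusted p = 0.818), and Myh1 was at 1.70 without day 3 replicate 5 (adjusted p = 0.0456). These chains are near-identical over long stretches, so reads between them may have been split. Of 18 fast sarcomere genes, 2 were called higher, Mybph and Casq1, and 2 lower, Mylk2 (-0.78, adjusted p = 0.0209) and Tnni2 (-0.44, adjusted p = 0.0368). With 1 library left out, those called lower ran between 0 and 2; leaving out 1 library gave higher counts between 2 and 3. Tnni2 was not called in 7 of the 10 fits that left out 1 library, and Mylk2 was not called without day 3 replicate 4, day 7 replicate 1 or day 7 replicate 4.

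Of 16 slow sarcomere genes, 1 was called higher and 0 lower: Sln, a regulator of the calcium pump, had 3.73, 25.6, 1.95, 5.56 and 6.202 CPM in the day 7 libraries, against 1.88, 0.803, 3.44, 2.19 and 2.98 CPM in the day 3 libraries. For Sln the log2 fold change was 1.93 (SE 0.56, adjusted p = 0.0135). Sln was at 2.18 (adjusted p = 0.00314) without day 7 replicate 3. Sln was at 0.95 without day 7 replicate 2 (adjusted p = 0.0809). Over the fits that left out 1 library, higher calls lay between 0 and 3. Casq2, the slow store protein (1.35, adjusted p = 0.0967), Myh7b (1.33, adjusted p = 0.201) and Mybpc1 (1.04, adjusted p = 0.146) were not called with all libraries. Without day 3 replicate 5, Casq2 was at 1.97 (adjusted p = 0.0215) and Myh7b at 2.44 (adjusted p = 0.0254).

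Glycolysis and glycogen genes were called at shares near those of all genes. Of 24 tested, 6 (25%) were called higher and 4 (16.7%) lower, against 17% and 19.5% of all genes, with a median log2 fold change of -0.04, and without day 7 replicate 3 the counts were 5 higher and 4 lower (median -0.10). For lower members the count was 2 with only the 10 libraries of both days fitted, 2 without day 3 replicate 2, 2 without day 3 replicate 4, 2 without day 7 replicate 1, 2 without day 7 replicate 2 and 2 without day 7 replicate 4. Phkg1, the catalytic subunit of phosphorylase kinase, had 261, 95.1, 113, 225 and 76.5 CPM in the day 7 libraries, against 34.7, 41.3, 40.1, 27.3 and 56.3 CPM in the day 3 libraries and rose with no overlap. For Phkg1 the log2 fold change was 1.95 (SE 0.33, adjusted p = 0.00138). Phkg1 was at 2.04 (adjusted p = 0.000462) without day 7 replicate 3. Pgam2 (1.64, adjusted p = 0.00647) and Eno3 (1.22, adjusted p = 0.00734), muscle forms of late glycolytic enzymes, rose, and Gpi1 fell (-0.66, adjusted p = 0.00689).

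Of 47 respiratory chain genes, 11 were called higher and 0 lower, with a median log2 fold change of 0.24, and without day 7 replicate 3 the counts were 6 higher and 3 lower (median 0.12), so that without that library the share of higher calls was below the 20.2% of all genes. With 1 library left out, those called lower ran between 0 and 3; the number called higher was 4 with only the 10 libraries of both days fitted, 2 with only those of both days fitted and day 7 replicate 3 left out, 7 without day 3 replicate 3, 4 without day 3 replicate 4, 4 without day 7 replicate 1 and 5 without day 7 replicate 2. Ndufb10, a subunit of complex I, had 69.5, 61.6, 76.3, 60.3 and 45.4 CPM in the day 7 libraries, against 38.9, 36.3, 42.7, 26.8 and 45.3 CPM in the day 3 libraries, so that the lowest day 7 and the highest day 3 library were level. For Ndufb10 the log2 fold change was 0.72 (SE 0.16, adjusted p = 0.00344). Ndufb10 was at 0.64 (adjusted p = 0.00518) without day 7 replicate 3. Ndufv2 (0.53, adjusted p = 0.00606), Ndufb8 (0.58, adjusted p = 0.0109) and Cyc1 (0.87, adjusted p = 0.0165) rose too. Ppargc1a, the coactivator of mitochondrial genes, was not called (33.5 to 84.7 CPM at day 7, against 28.2 to 68.1 CPM at day 3; adjusted p = 0.761).

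Of 27 fatty acid oxidation genes, 4 (14.8%) were called lower, a smaller share than the 19.5% of all genes, and 0 higher. Without day 7 replicate 3, 12 were called lower, and the median was -0.70 without that library and -0.43 with all. Members called lower numbered 10 with only those of both days fitted and day 7 replicate 3 left out; calls of higher members were between 0 and 2 with 1 library left out. Ucp3, a mitochondrial carrier that fasting induces, had 43.3, 97.2, 301, 68.99 and 18.3 CPM in the day 7 libraries, against 822, 799, 256, 492 and 260.2 CPM in the day 3 libraries, with day 7 replicate 3 again the highest of its group. For Ucp3 the log2 fold change was -2.31 (SE 0.66, adjusted p = 0.0129). Ucp3 was at -3.21 (adjusted p = 0.000986) without day 7 replicate 3. Mlycd, malonyl-CoA decarboxylase, fell with no overlap (38.3 to 106.9 CPM at day 7, against 147 to 172 CPM at day 3). For Mlycd the log2 fold change was -1.22 (SE 0.25, adjusted p = 0.00242). Eci2 (-1.11, adjusted p = 0.00805) and Echs1 (-0.66, adjusted p = 0.0226) fell. Echs1 was not called without day 3 replicate 1, day 7 replicate 1 or day 7 replicate 4.

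Lipid synthesis genes had the largest rises of the genes named, and these rested on few libraries. Fasn (chr11:120805958-120824547, minus strand), fatty acid synthase, had 646, 27.9, 12.3, 2982 and 329 CPM in the day 7 libraries, against 12.7, 15.7, 18.1, 28.4 and 22.8 CPM in the day 3 libraries, and Scd1 (chr19:44394450-44407709, minus strand), the desaturase that follows it, had 1598, 47.6, 44.5, 9934 and 106.8 CPM in the day 7 libraries, against 102.3, 41.3, 37.6, 72.5 and 33.5 CPM in the day 3 libraries. Day 7 replicates 1 and 4 were far above all others, replicate 5 was above day 3 for Fasn and just above it for Scd1, and replicates 2 and 3 lay at the day 3 level. For Fasn the log2 fold change was 5.35 (SE 1.13, adjusted p = 0.00274). Fasn was at 5.67 (adjusted p = 0.000455) without day 7 replicate 3. For Scd1 the log2 fold change was 5.35 (SE 1.40, adjusted p = 0.00833). Scd1 was at 5.67 (adjusted p = 0.00293) without day 7 replicate 3. Fasn was at 3.70 without day 7 replicate 4 (adjusted p = 0.00922), and Scd1 was at 2.97 without day 7 replicate 4 (adjusted p = 0.0485).

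Elovl6, an elongase of fatty acids, had 15.9, 1.22, 0.868, 89.6 and 6.29 CPM in the day 7 libraries, against 0.727, 0.6498, 0.607, 1.02 and 0.78995 CPM in the day 3 libraries. For Elovl6 the log2 fold change was 4.90 (SE 1.03, adjusted p = 0.00266). Elovl6 was at 3.001 without day 7 replicate 4 (adjusted p = 0.00863). Tmem45b, a membrane protein, had 7.94, 0.356, 0.325, 52.9 and 0.276 CPM in the day 7 libraries, against 0.848, 0.688, 0.607, 0.924 and 0.395 CPM in the day 3 libraries, high in replicates 1 and 4 of day 7 only. For Tmem45b the log2 fold change was 4.16 (SE 1.28, adjusted p = 0.0187). Tmem45b was at 1.71 without day 7 replicate 4 (adjusted p = 0.209). Acly, Slc25a1 and Srebf1, named after their values were seen, supply and switch on the same pathway and had log2 fold changes of 2.95 (adjusted p = 0.00392), 3.98 (adjusted p = 0.0055) and 2.29 (adjusted p = 0.00388). Without day 7 replicate 4, Acly was at 1.71 and Slc25a1 at 2.37.

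Scd2, a desaturase of other tissues, rose with no overlap, with 153, 26.5, 18.9, 224 and 27.8 CPM in the day 7 libraries, against 8.06, 8.68, 10.7, 11.7 and 18.8 CPM in the day 3 libraries. For Scd2 the log2 fold change was 2.96 (SE 0.60, adjusted p = 0.00235). Scd2 was at 3.22 (adjusted p = 0.000494) without day 7 replicate 3. Scd2 was at 2.29 without day 7 replicate 4 (adjusted p = 0.00812). Fdps, of the cholesterol pathway, had 13.8, 5.29, 5.42, 12.1 and 4.64 CPM in the day 7 libraries, against 1.21, 2.48, 2.38, 2.97 and 3.86 CPM in the day 3 libraries. For Fdps the log2 fold change was 1.67 (SE 0.32, adjusted p = 0.00179). Fdps was at 1.79 (adjusted p = 0.000663) without day 7 replicate 3. Fdft1, which commits the pathway to sterols, fell, with 48.9 to 193 CPM at day 7, against 219 to 472 CPM at day 3, as did Acacb, whose product malonyl-CoA restrains fat oxidation (408 to 1189 CPM at day 7, against 1331 to 2314 CPM at day 3). For Fdft1 the log2 fold change was -1.62 (SE 0.33, adjusted p = 0.00247). For Acacb the log2 fold change was -1.22 (SE 0.24, adjusted p = 0.00195). Of 26 genes of cholesterol and fatty acid synthesis, 14 were called higher and 2 lower, with a median log2 fold change of 1.04, and without day 7 replicate 3 the counts were 15 higher and 2 lower (median 1.17).

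Some markers of fat cells followed the same libraries. Adiponectin (Adipoq), a fat cell hormone, had 49.3, 2.39, 0.597, 223 and 33.03 CPM in the day 7 libraries, against 8.78, 4.36, 13.97, 7.83 and 2.02 CPM in the day 3 libraries and 56.7, 98.04 and 343 CPM in the 3 sham libraries, and perilipin 1 (Plin1), a coat protein of fat droplets, had 14.7, 0.559, 0.108, 79.4 and 5.38 CPM in the day 7 libraries, against 0.969, 1.34, 4.05, 2.77 and 0.78995 CPM in the day 3 libraries and 22.7, 38.002 and 113 CPM in the sham libraries. Of 11 adipocyte markers, 6 were called higher and 1 lower. Their sum was 1800, 1290, 1080, 7260 and 1040 CPM in the day 7 libraries, against 1310 to 1980 at day 3 and 2090 to 8900 in sham libraries. By that sum only day 7 replicate 4 stood above day 3. Adipoq, Plin1, Cfd, Retn, Cidec and Lep alone summed to 269.9, 13.4, 5.75, 935.5 and 195.2 CPM at day 7, against 13.1 to 81.5 at day 3. With the log2 sum of 6 fat cell markers (Adipoq, Plin1, Cfd, Retn, Cidec and Lep) as a covariate, an alternative added after the data were seen, 1677 genes were called higher and 2445 lower. The log2 fold change of Fasn was then 2.11 (adjusted p = 0.0104), that of Scd1 1.69 (adjusted p = 0.0414) and that of Elovl6 2.31 (adjusted p = 0.00561), against 5.35, 5.35 and 4.90 without the covariate. Acly was at 1.35, Slc25a1 at 1.48 and Srebf1 at 1.36, all still called, and 12 genes of the synthesis list were higher and 2 lower. Of the named genes, 4 lost their call, namely Tmem45b (0.69, adjusted p = 0.508), Igf1 (0.82, adjusted p = 0.141), Meg3 (0.86, adjusted p = 0.0508) and Tnni2 (-0.43, adjusted p = 0.0565). Of the 6 markers, 4 were themselves called higher at day 7, so day and fat cell content cannot be fully told apart.

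**Figure D5:**
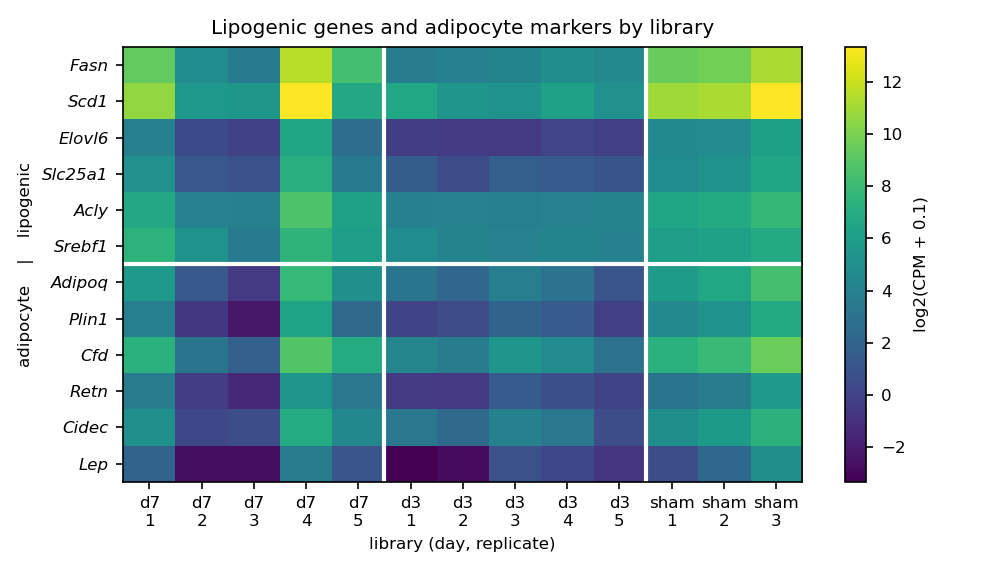
Heat map of log2(CPM + 0.1) for 6 lipid synthesis genes (upper rows) and 6 adipocyte markers (lower rows) in the 5 day 7, 5 day 3 and 3 sham quadriceps libraries, each column a library. Day 7 replicates 1 and 4 and the sham libraries are bright in both blocks, and day 7 replicates 2 and 3 resemble day 3.

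Interferon response genes rose at low levels, and 2 of them lie near each other on chromosome 19 (mm10; Ifit1 at chr19:34640889-34650009, plus strand, Ifit3 at chr19:34583529-34588982, plus strand). The 250 bases before each start (chr19:34640639-34640888 and chr19:34583279-34583528, plus strand, RefSeq on GRCm38.p6) are shown because these antiviral genes share a known response element, the interferon-stimulated response element, whose core on either strand is in capitals:
Ifit1: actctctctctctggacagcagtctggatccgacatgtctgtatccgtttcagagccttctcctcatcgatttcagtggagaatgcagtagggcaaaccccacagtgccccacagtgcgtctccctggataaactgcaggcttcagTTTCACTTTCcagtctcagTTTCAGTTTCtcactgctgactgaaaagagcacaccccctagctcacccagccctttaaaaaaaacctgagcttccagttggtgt
Ifit3: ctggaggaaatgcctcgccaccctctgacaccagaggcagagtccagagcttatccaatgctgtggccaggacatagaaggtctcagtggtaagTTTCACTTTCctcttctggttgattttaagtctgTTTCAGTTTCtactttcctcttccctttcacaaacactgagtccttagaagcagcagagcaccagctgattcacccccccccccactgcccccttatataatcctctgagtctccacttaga
Each held 2 matches, at 104 and 85 bases before the start of Ifit1 and at 156 and 122 bases before that of Ifit3. Of 32851 promoters, 3.0% held at least 1 match and 0.18% at least 2. Both genes were chosen because the element is known in them, so finding it is not a result of these data. Matches in the other genes of the interferon list are not given. Ifit1 had 5.5996, 2.54, 0.814, 4.14 and 3.905 CPM in the day 7 libraries, against 1.82, 0.6498, 0.8096, 0.876 and 0.571 CPM in the day 3 libraries, and Ifit3 had 3.39, 1.02, 1.79, 4.14 and 4.64 CPM in the day 7 libraries, against 1.33, 0.573, 0.911, 0.681 and 0.395 CPM in the day 3 libraries. For Ifit1 day 7 replicate 3 was the exception, and for Ifit3 day 3 replicate 1 exceeded day 7 replicate 2. For Ifit1 the log2 fold change was 1.87 (SE 0.45, adjusted p = 0.00509). Ifit1 was at 2.12 (adjusted p = 0.000586) without day 7 replicate 3. For Ifit3 the log2 fold change was 1.96 (SE 0.40, adjusted p = 0.00235). Ifit3 was at 2.10 (adjusted p = 0.000992) without day 7 replicate 3.

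Psmb10, a subunit of the immune form of the proteasome, had 4.47, 3.15, 2.12, 5.65 and 2.21 CPM in the day 7 libraries, against 1.51, 1.19, 1.77, 0.584 and 1.62 CPM in the day 3 libraries, rising with no overlap while the standard subunits fell. For Psmb10 the log2 fold change was 1.40 (SE 0.31, adjusted p = 0.00356). Of 28 interferon response genes, 12 were called higher and 0 lower, with a median log2 fold change of 0.76, and without day 7 replicate 3 the counts were 14 higher and 0 lower (median 0.88). At day 7 the values of Ifit1 bracketed its sham mean of 3.499 ± 0.595 CPM.

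Cell division genes were low in count and depended on single libraries. Of 32 tested, 10 were called higher and 2 lower, with a median log2 fold change of 1.14, and without day 7 replicate 3 the counts were 16 higher and 3 lower (median 1.30). With 1 library left out, those called lower ran between 1 and 4; higher calls were 4 with only the 10 libraries of both days fitted, 5 without day 3 replicate 1, 5 without day 3 replicate 3, 5 without day 7 replicate 1, 3 without day 7 replicate 4 and 4 with a covariate of summed adipocyte markers. Mki67, a marker of dividing cells chosen after its values were seen, had 10.1, 5.14, 2.06, 12.7 and 0.827 CPM in the day 7 libraries, against 0.666, 0.4205, 0.354, 0.778 and 5.49 CPM in the day 3 libraries, high in day 7 replicates 1, 2 and 4 and in day 3 replicate 5. For Mki67 the log2 fold change was 1.99 (SE 0.80, adjusted p = 0.0606). Mki67 was at 2.21 (adjusted p = 0.038) without day 7 replicate 3. Without day 3 replicate 5 it was at 3.48 (adjusted p = 0.00234), and without day 7 replicate 5 at 2.27 (adjusted p = 0.0306). Rrm1, a subunit of ribonucleotide reductase (17.95 to 30.9 CPM at day 7, against 6.33 to 15.5 CPM at day 3), and Mcm2, of the replication helicase (3.36 to 9.46 CPM at day 7, against 1.42 to 3.12 CPM at day 3), rose with no overlap, whereas Pcna, the replication clamp, fell with no overlap (6.68 to 10.03 CPM at day 7, against 10.5 to 23.6 CPM at day 3). For Rrm1 the log2 fold change was 1.31 (SE 0.24, adjusted p = 0.00162). For Mcm2 the log2 fold change was 1.54 (SE 0.33, adjusted p = 0.00286). For Pcna the log2 fold change was -1.03 (SE 0.19, adjusted p = 0.00157). Prc1, of the spindle midzone, rose at a low level. For Prc1 the log2 fold change was 1.87 (SE 0.50, adjusted p = 0.00903).

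Clock genes differed in both directions. Dbp, an output gene of the clock, had 85.5, 20.3, 8.08, 86.6 and 29.1 CPM in the day 7 libraries, against 3.88, 3.52, 3.896, 2.14 and 11.02 CPM in the day 3 libraries. Only day 7 replicate 3 crossed day 3 replicate 5. For Dbp the log2 fold change was 3.23 (SE 0.64, adjusted p = 0.00211). Dbp was at 3.50 (adjusted p = 0.000405) without day 7 replicate 3. Cry2, a repressor of the clock, had 38.7, 62.5, 161, 33.9 and 70.3 CPM in the day 7 libraries, against 257, 419, 223, 393 and 107.0 CPM in the day 3 libraries, and Clock (-0.997, adjusted p = 0.00213) and Rora (-1.53, adjusted p = 0.003), which activate transcription, fell. For Cry2 the log2 fold change was -1.94 (SE 0.41, adjusted p = 0.00287). Cry2 was at -2.45 (adjusted p = 0.00027) without day 7 replicate 3. Of 19 clock genes, 9 were called lower and 3 higher, with a median log2 fold change of -0.71, and without day 7 replicate 3 the counts were 10 lower and 5 higher (median -0.70). Over the fits that left out 1 library, higher calls lay between 3 and 5. The labels used here do not give the hour at which tissue was taken.

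Imprinted growth genes rose in part: of 12 tested, 5 were called higher and 0 lower, with a median log2 fold change of 0.75, and without day 7 replicate 3 the counts were 7 higher and 0 lower (median 0.88). Members called higher numbered 8 by the DESeq2 Wald test, 3 without day 3 replicate 2 and 3 without day 7 replicate 4. Rian, a non-coding RNA of the Dlk1-Dio3 region, had 14.2, 10.5, 4.61, 15.1 and 10.02 CPM in the day 7 libraries, against 4.73, 2.98, 2.88, 3.99 and 4.17 CPM in the day 3 libraries, with day 7 replicate 3 inside the day 3 range. For Rian the log2 fold change was 1.54 (SE 0.32, adjusted p = 0.00263). Rian was at 1.73 (adjusted p = 0.000411) without day 7 replicate 3. Meg3, of the same region, rose. For Meg3 the log2 fold change was 1.05 (SE 0.33, adjusted p = 0.0196). Meg3 was at 0.98 without day 3 replicate 2 (adjusted p = 0.0504) and 0.86 without day 7 replicate 4 (adjusted p = 0.0649). Ndn, a growth-restraining protein (1.78, adjusted p = 0.0041), and Mest (1.46, adjusted p = 0.00812) rose too.

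For the remaining lists, only counts are given, against 19.5% of all genes lower and 17% higher. In parentheses stand the count without day 7 replicate 3 and the range over the 10 fits that each left out 1 library, and many counts moved by more than 1.5 times. Of 20 aminoacyl-tRNA synthetases, 6 were called lower (7 without that library, range 3 to 12) and 0 higher (0 in each fit). Of 25 genes of the unfolded protein and integrated stress responses, 7 were called lower (8 without that library, range 2 to 11) and 2 higher (4 without that library, range 1 to 4). Of 24 heat shock chaperones, 5 were called lower (6 without that library, range 3 to 7) and 3 higher (3 without that library, range 1 to 3). Of 16 NRF2 antioxidant genes, 7 were called lower (10 without that library, range 3 to 10) and 1 higher (1 without that library, range 1 to 2). Of 19 tricarboxylic acid cycle genes, 1 was called lower (2 without that library, range 1 to 2) and 4 higher (2 without that library, range 2 to 5). Of 18 genes of branched chain amino acid catabolism, 6 were called lower (9 without that library, range 5 to 9) and 3 higher (1 without that library, range 0 to 5). Of 15 amino acid transporters, 5 were called lower (8 without that library, range 2 to 8) and 2 higher (2 without that library, range 1 to 2). Of 18 p53 targets, 5 were called lower (9 without that library, range 3 to 9) and 2 higher (3 without that library, range 1 to 3). Of 20 immediate early factors, 2 were called lower (6 without that library, range 0 to 6) and 0 higher (0 without that library, range 0 to 1). Of 23 mitochondrial regulators, 5 were called lower (7 without that library, range 5 to 7) and 3 higher (4 without that library, range 2 to 5). Of 24 YAP targets and Hippo genes, 4 were called lower (4 without that library, range 2 to 5) and 2 higher (4 without that library, range 1 to 4). Of the YAP genes, neither Yap1 nor its targets Ctgf (-0.25, adjusted p = 0.73) and Ankrd1 (-0.19, adjusted p = 0.776) were called with all libraries. For Yap1 the log2 fold change was -0.46 (SE 0.22, adjusted p = 0.109). Yap1 was at -0.68 (adjusted p = 0.0109) without day 7 replicate 3.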

How the data were processed

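Total RNA of mouse quadriceps was sequenced; per the submitters' processing notes, reads were handled with FastQC 0.11.5, STAR 2.7.10a, featureCounts of Subread 2.0.3 and edgeR 3.40.2 on mm10, with no order or settings given. The authors deposited whole-number read counts per gene symbol (14702 genes) with gene lengths; whether counting used strand is not given in the sources used here, so antisense and overlapping genes are uncertain. A further 54 per-sample columns were not used here. In the deposited symbols, 23 had been turned into dates and none of these is named.

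Groups came from the titles. Counts of all 18 quadriceps libraries were filtered by filterByExpr, scaled by TMM and fitted with the robust quasi-likelihood test of edgeR 4.0.16 (R 4.3.3), with the contrast day 7 minus day 3 and Benjamini-Hochberg adjustment over all genes tested; p-values adjusted under 0.05 were called. The standard error is the log2 fold change divided by the square root of F. Counts per sample limit precision for genes near 1 CPM, and intervals are not given. The series' design text speaks of separate mice for day 3 only, so for day 7 the p-values measure the spread between these samples, which may in part be technical. The main fit, with its low-count filter switched off, was tested on simulated counts with known changes. In these no library was set to lie against its group. The alternative fits, the list counts and the placement of set-aside libraries were not tested in this way.

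The members, gene lists and tests were chosen with earlier results of these data known. Genes named in the text were the 8 largest rises and 8 largest falls among genes called with and without day 7 replicate 3 (mean of at least 5 CPM, no predicted genes), up to 4 members with the smallest p per list described in detail, and a fixed set of wasting, growth and myosin genes; Col3a1, Srebf1, Acly, Slc25a1, Myh8, Mki67, Pax7, Sdc4, Adipoq and Plin1 were added after their values were seen. Some genes that this rule names are not reported here. A planned count of sham levels on the day 7 side is not reported, since both differences share the day 3 libraries. Alternatives were DESeq2 1.42.0 size factors and Wald test, no low-count filter, no robust estimation, only the 10 libraries of both days, each library left out, the replicate number as a block, day 7 replicate 3 and day 3 replicate 5 both left out, and an adipocyte covariate; the last 2, and 2 forms of the block, were added after seeing the data. Promoter sequences came from RefSeq.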

Additional observations from a re-analysis of the deposited data

Results flagged for a closer look

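Within each group of 5, a library was marked where its gap to the nearest other, divided by the range of the group, exceeded Dixon's 95% critical value of 0.71. Chance marks about 1 in 20 groups, and 20 of 306 were marked, 13 of them in day 3 replicate 5 and 5 in day 7 replicate 3. In day 3 replicate 5, genes of the degradation and synthesis machinery were lowest: Psmb4 at 116 CPM, with the other day 3 libraries at 207 or more, Psmd13 at 52.8, Ube2s at 12, Usp14 at 100, Ncl at 160, Npm1 at 132 and Eif4a2 at 385 CPM. Also lowest in it were Tnni2 at 1190 and Mstn at 92.3 CPM. Highest in that library were Cacnb1 at 61.5, Col6a2 at 12.1, Col1a1 at 38.1 and Mki67 at 5.49 CPM. In day 7 replicate 3, Fam65c stood at 1.79, Atg4b at 17.8, Eif4a2 at 384 and Acvr1b at 125 CPM, all above the other day 7 libraries, and Mef2c at 231 CPM stood below them. Rpl5 was 119 CPM in day 7 replicate 5, above its group, and Srebf1 was 27.7 CPM in day 3 replicate 1, above its group.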

How the results depend on the processing

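Of the 4971 genes called with all libraries, 0 were called in the opposite direction in any alternative; all of those tested kept their sign, except 3 under the adipocyte covariate. With all libraries but the 2 on the side of the other day, 3194 genes were called higher and 3422 lower. Of the named genes not called, Myog (-0.08 without day 7 replicate 5), Myh7 (-1.45 without day 7 replicate 2) and, without those 2 libraries, Socs3 (0.012) and Ankrd1 (0.035) changed sign. The counts of genes called stayed within 1.5 times of 2315 higher and 2656 lower with DESeq2 size factors, no low-count filter, the DESeq2 Wald test (2771 higher and 2867 lower) and no robust estimation. With only the 10 libraries of both days, 1685 genes were called lower. Leaving out 1 library gave 1457 to 2804 genes higher and 1926 to 3181 lower, the fewest higher without day 7 replicate 4 and the most lower without day 7 replicate 3. Day 7 and day 3 share replicate numbers, but same-numbered libraries did not deviate together (correlations of deviations -0.299 to 0.118, 0 of 5 best with their own number), so the numbers were not taken as pairs. With the replicate block on the 10 libraries, 0 genes were called higher and 0 lower (4517 at unadjusted p under 0.05, smallest adjusted p 0.0631); with the replicate block and without day 7 replicate 3, 732 were called higher and 990 lower, and with the block over all 18 libraries 1922 and 2462. The cause of these differences was not tested. Genes near 1 CPM, such as Rps27, Ifit3 or Prc1, rest on few reads per library, and differences smaller than their spread were not detectable at this depth.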
